A study of Homo sapiens with 12 samples.

Results

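The HOX cluster genes were followed across 12 one-colour Agilent arrays of human lung cancer cell lines. Members were the non-control features whose gene name on the array was HOX, a cluster letter from A to D and a paralog number, which gave 39 genes of 36332 gene names. They were read by 45 probes, with 11 genes in HOXA, 10 in HOXB, 9 in HOXC and 9 in HOXD. A gene was counted as expressed where a probe of it was well above background, by the scanner software's own call, on at least 3 of the 12 arrays. By that measure 34 of the 39 genes were expressed, and these were among the 24856 genes that entered the test.

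The study asked which mRNAs follow the microRNA miR-197, whose level was raised or blocked in 3 lines. A549 and PC14 are lung adenocarcinoma lines, and PC14CDDP is a cisplatin-resistant line whose parent is PC14. PC14 was bought from a cell bank and PC14CDDP was provided by another laboratory, so the resistant line and the PC14 cells used beside it came from different sources. Each line was transfected at 25 nM with pre-miR-197 (a precursor that raises the miRNA, premiR-197 in the labels), with its control NC (AllStar-NC in the labels), with LNA-miR-197 (a locked nucleic acid inhibitor) or with its control LNA-NC (LNA-miR-NC in the labels). There was 1 array for each line and transfection and no untransfected array, the transfection reagent DharmaFECT 1 was shared by all cultures, and the time from transfection to RNA extraction was not given in the sources used here.

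HOX genes encode transcription factors that bind DNA through a homeodomain, a conserved fold encoded by the homeobox. In mammals they lie in 4 clusters that arose by duplication, and the genes of a cluster are numbered by paralog group, with low numbers at the 3′ end. In the embryo, groups near the 3′ end are switched on early and towards the head, and those near the 5′ end late and towards the tail, so that the set of HOX genes in use records position along the body axis. Retinoic acid and CDX factors open the clusters, Polycomb proteins hold them silent, Trithorax proteins hold them active, and HOX proteins bind DNA with TALE cofactors such as the MEIS proteins. Adult lung keeps part of its HOX pattern, and cell lines carry patterns of their own.

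The 4 arrays of a line were cultures of that 1 line given different transfections, so the p-values measure only the spread between these arrays, which may be technical. PC14 and PC14CDDP shared a slide and were compared within it, whereas A549 had a slide to itself, so that for A549 against either other line, line and slide cannot be told apart. On the shared slide the PC14 arrays sat in row 1 and the PC14CDDP arrays in row 2, so for these lines, line and row cannot be told apart. Nor can transfection and position, since a given transfection sat in a fixed column of the slide. The 75th percentile of the signal ran from 614 to 715 over the 12 arrays, and the share of probes well above background from 55.8% to 63.0%. The adenocarcinoma marker NKX2-1 was well above background on no A549 array and on all 4 of each other line, SFTPB on no array of PC14 or PC14CDDP, and SFTPA1 on no array of A549 or PC14CDDP. Of the 5 lung markers listed, 2 were well above background on all 4 A549 arrays. In PC14 and in PC14CDDP 3 were so, which in PC14CDDP were NKX2-1, NAPSA and SFTPC. The 6 epithelial markers were all higher in A549 than in either other line, with a summed signal of 448360 to 540251 in A549, 110768 to 161989 in PC14 and 100383 to 156922 in PC14CDDP. CDH1 and EPCAM were well above background on no PC14CDDP array, and on 2 and 3 of the 4 PC14 arrays.

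Every probe was 60 bases long, and because the homeobox is conserved, where a probe lies bears on whether it can tell HOX genes apart. Of the 45 probes, 7 held codons of the most conserved homeodomain stretches. The following 4 are shown because results below rest on them or on their disagreement with another probe. Capitals mark those codons (valine-lysine-isoleucine-tryptophan or valine-lysine-valine-tryptophan, glutamine-asparagine-arginine-arginine-methionine-lysine, or the run of arginines or lysine that ends in isoleucine, with the glutamate after it where the probe holds that codon). Each is written 5′ to 3′ on the gene's strand, with its position in hg19 as the array files give it.
HOXC10, chr12:54383100-54383159, plus strand: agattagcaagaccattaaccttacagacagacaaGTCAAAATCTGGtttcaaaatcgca
HOXC5, chr12:54428108-54428167, plus strand: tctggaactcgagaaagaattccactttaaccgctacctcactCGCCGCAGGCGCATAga
HOXD8, chr2:176996109-176996168, plus strand: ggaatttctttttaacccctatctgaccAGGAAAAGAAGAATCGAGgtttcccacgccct
HOXB2, the probe that does not stand for the gene, chr17:46620897-46620956, minus strand: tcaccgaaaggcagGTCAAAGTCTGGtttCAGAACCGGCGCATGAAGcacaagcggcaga
The longest run of bases that these 4 probes shared with a probe of another HOX gene was 8 for HOXC5 and 10 for each of the others, of 60. Probes were compared only with probes, most of which lie outside these stretches. The transcripts of other HOX genes were not searched, so the runs do not show whether a probe can tell those genes apart.

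All 3 lines expressed most of each cluster. A gene was well above background on all 4 arrays for 30 of the 39 genes in A549, 30 in PC14 and 28 in PC14CDDP, and 25 genes were so on all 12 arrays. Of the 11 HOXA genes, 8 were seen on all 12 arrays, of the 10 HOXB genes 8, of the 9 HOXC genes 5 and of the 9 HOXD genes 4. HOXB1, HOXC11, HOXC12, HOXD4 and HOXD12 were well above background on no array. HOXB13 and HOXD8 were well above background on all 4 A549 arrays and on no array of PC14 or PC14CDDP, so both entered the test through A549 alone.

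**Figure D1:**
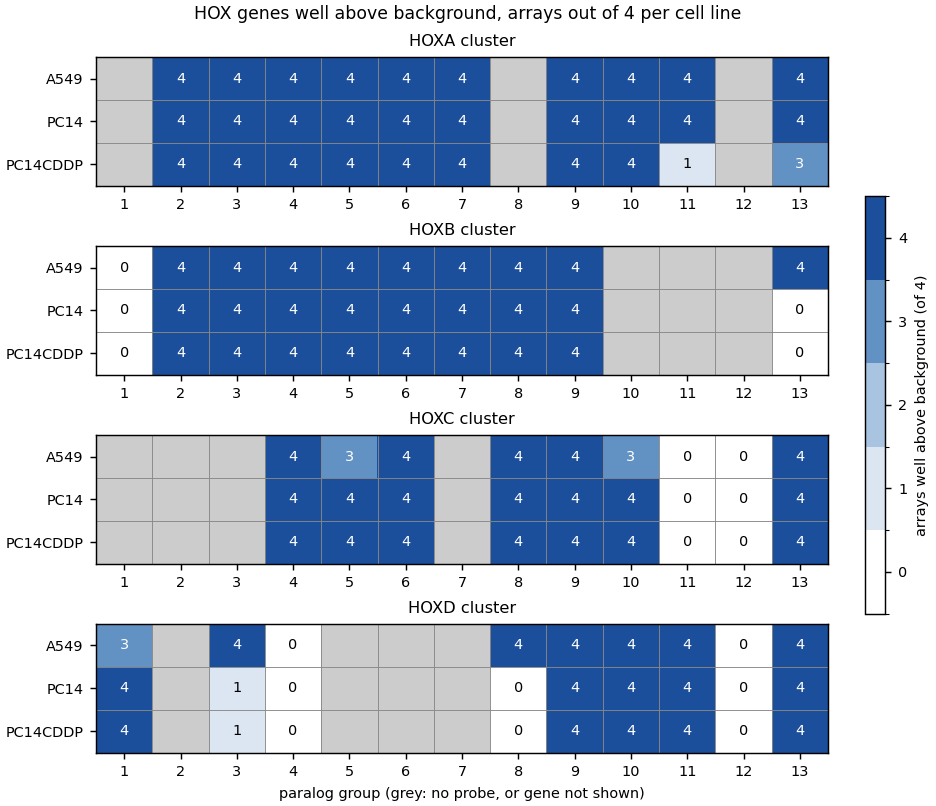
Number of arrays (of 4 for each line) on which each HOX gene was well above background, by cluster and paralog group (1 to 13), with grey where the array holds no probe for that position or the gene is not shown. HOXB13 and HOXD8 are filled in A549 and empty in both PC14 lines.

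The levels given from here on are log2 of the array's processed signal minus log2 of its 75th percentile, so 0 is the 75th percentile of an array and a difference of 1 is a doubling. Levels are compared only within a probe, since probes differ in brightness. Between PC14CDDP and its parent, 17 of the 34 expressed HOX genes were higher in PC14CDDP and 6 were lower at an adjusted p under 0.05 (limma, Benjamini-Hochberg over all genes tested). Over all 24856 genes, 24.8% were higher and 23.6% were lower in that comparison, and the median log2 difference was 0.41 for the HOX genes and 0.03 for all genes. Between A549 and PC14, 16 HOX genes were higher in A549 and 12 were lower (35.9% and 32.3% of all genes), with medians of 0.29 and 0.08. Between A549 and PC14CDDP, 11 were higher in A549 and 17 were lower (36.8% and 33.7% of all genes), with medians of -0.31 and 0.06. The median size of the log2 difference, without regard to sign, was 0.95, 1.40 and 1.56 for the HOX genes in the 3 comparisons and 0.40, 0.65 and 0.70 for all genes. Since genes entered by being bright on at least 3 arrays, these counts and medians describe the members and were not tested as a group.

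The counts by cluster were as follows. In PC14CDDP against PC14, 8 of 9 tested HOXB genes were higher and none lower (the exception was HOXB13, dim in both), against 4 higher and 2 lower of 11 in HOXA, 1 and 3 of 7 in HOXC, and 4 and 1 of 7 in HOXD. In A549 against PC14, 8 HOXA genes were higher and 2 lower, 5 and 1 in HOXB, 1 and 5 in HOXC, and 2 and 4 in HOXD. In A549 against PC14CDDP the counts were 7 and 1 in HOXA, 2 and 6 in HOXB, 1 and 5 in HOXC, and 1 and 5 in HOXD. By position in the cluster, the 7 tested genes of paralog groups 1 to 3 had a median log2 difference of 2.25 in A549 against PC14, the 14 of groups 4 to 8 of 0.37 and the 13 of groups 9 to 13 of -0.19. The 2.25 is the value of HOXD3, whose call depended on single arrays (below), and 5 of the 7 were called higher and 2 lower. The same 7 genes had medians of 0.84 in PC14CDDP against PC14 and 0.80 in A549 against PC14CDDP. No difference between clusters or positions was tested.

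The 5 genes of each cluster with the largest difference between lines are given array by array, always in the order pre-miR-197, NC, LNA-miR-197 and LNA-NC. In HOXA, the low-numbered genes were highest in A549. This was not particular to them, since HOXA9, HOXA13 and, by its brighter probe, HOXA10 also passed the test as higher in A549 than in either other line. HOXA2, a group 2 gene known for patterning the hindbrain and second pharyngeal arch, had levels of -1.55, -1.70, -1.29 and -0.75 in A549, -3.52, -4.21, -3.45 and -3.18 in PC14, and -2.95, -2.85, -2.40 and -1.88 in PC14CDDP. No line overlapped with another. It was higher in A549 than in PC14 by 2.27 (SE 0.13, adjusted p = 1.64e-06, 4.81-fold), and PC14CDDP lay between them, 1.07 above PC14 (adjusted p = 0.000261). HOXA3, which patterns pharyngeal organs such as the thymus and parathyroid, had levels of 1.95, 1.83, 1.69 and 1.85 in A549, -1.01, -1.09, -1.29 and -1.23 in PC14, and -0.33, -0.30, -0.23 and -0.43 in PC14CDDP. Again the 3 lines were apart, with A549 7.92-fold above PC14 (log2 2.99, SE 0.09, adjusted p = 4.14e-08) and PC14CDDP 1.78-fold above PC14 (adjusted p = 0.00012). HOXA4 had levels of -1.83, -1.85, -1.47 and -1.68 in A549, -4.88, -4.80, -4.39 and -4.68 in PC14, and -4.85, -4.62, -4.58 and -4.29 in PC14CDDP. Here the PC14 lines overlapped (difference 0.11, adjusted p = 0.447), and A549 was 7.91-fold above PC14 and 7.34-fold above PC14CDDP (adjusted p = 1.19e-07 and 1.23e-07).

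Near the 5′ end of the cluster the order of the PC14 lines changed, while A549 stayed highest for HOXA13. HOXA11 and HOXA13, which pattern the limb and the urogenital tract, were both lower in PC14CDDP than in PC14. HOXA13 had levels of -0.76, -1.02, -0.82 and -1.23 in A549, -2.27, -2.10, -3.08 and -2.63 in PC14, and -4.38, -4.15, -5.43 and -4.87 in PC14CDDP, the third of which was not well above background. The lines did not overlap, and PC14CDDP was 4.55-fold below PC14 (log2 -2.18, SE 0.21, adjusted p = 7.99e-05) and A549 13.4-fold above PC14CDDP (adjusted p = 1.22e-06). HOXA11 had levels of -4.59, -5.68, -5.49 and -5.81 in A549, -3.63, -4.54, -3.83 and -4.41 in PC14, and -7.09, -6.60, -5.18 and -6.69 in PC14CDDP, where the LNA-miR-197 array alone was well above background. All 4 PC14CDDP arrays lay below those of PC14 (log2 -2.29, SE 0.37, adjusted p = 0.00128), but they overlapped with A549. The HOXA11 difference between A549 and PC14CDDP of 1.00 (adjusted p = 0.0409) lost its call when any of 10 of the 12 arrays was left out, with values from 0.55 without the PC14CDDP pre-miR-197 array to 1.05, and that between A549 and PC14 of -1.29 (adjusted p = 0.0147) did so without the A549 LNA-miR-197 array (-1.01) or without the PC14 pre-miR-197 array (-1.15). Of the other HOXA genes, HOXA5, HOXA6, HOXA9 and HOXA10 did not pass the test between PC14CDDP and PC14 (0.33, 0.20, 0.11 and 0.14, though a second HOXA9 probe did, as given below), and HOXA7 was higher in PC14CDDP by 0.67 (adjusted p = 0.00063).

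In HOXB, PC14CDDP stood above its parent along most of the cluster. HOXB9, a gene that patterns the thoracic axis and is often studied in lung adenocarcinoma, had levels of 1.03, 1.35, 1.12 and 1.91 in A549, 0.91, 1.22, 1.16 and 0.75 in PC14, and 3.38, 3.06, 3.22 and 2.96 in PC14CDDP. Every PC14CDDP array lay above every array of the other lines, by 2.15 over PC14 (SE 0.22, adjusted p = 0.000101, 4.42-fold), while A549 and PC14 overlapped (0.34, adjusted p = 0.191). HOXB3 had levels of -2.93, -2.88, -3.10 and -2.86 in A549, -4.93, -5.61, -5.35 and -5.05 in PC14, and -3.00, -3.84, -4.47 and -3.66 in PC14CDDP. All PC14 arrays were the lowest, 2.81-fold below PC14CDDP and 4.9-fold below A549 (adjusted p = 0.000505 and 2.14e-05), and A549 overlapped with PC14CDDP. HOXB8, a regulator of myeloid progenitor growth, had levels of -0.47, -1.05, -1.23 and -1.22 in A549, -3.83, -3.15, -3.06 and -2.29 in PC14, and -2.38, -0.74, -0.83 and -1.32 in PC14CDDP. It was higher in PC14CDDP than in PC14 by 1.77 (SE 0.40, adjusted p = 0.00682) although the lowest PC14CDDP array, that of pre-miR-197, fell within the PC14 range. HOXB4, HOXB5, HOXB6 and HOXB7 were likewise higher in PC14CDDP than in PC14, by 1.17, 1.86, 1.43 and 1.61, with adjusted p-values between 5.66e-06 and 0.000636. Against A549, HOXB4, HOXB5, HOXB6, HOXB7 and HOXB9 were also higher in PC14CDDP, by 0.52 to 1.80. The smaller HOXB6 difference between A549 and PC14, 0.51 (adjusted p = 0.0386), lost its call when any of 7 of the 12 arrays was left out, with values from 0.40 to 0.57.

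The largest difference between lines over the 34 genes was that of HOXB13. This gene marks prostate and distal colon and lies apart from the rest of its cluster at the 5′ end. It had levels of 0.45, 0.69, 1.22 and 0.70 in A549, of -8.41, -8.41, -8.85 and -8.57 in PC14, and of -8.03, -8.07, -7.99 and -8.49 in PC14CDDP. No array of the PC14 lines was well above background, so a bound was taken, by which A549 was at least 130-fold above PC14 and at least 97.8-fold above PC14CDDP. Here and below, a bound sets the mean of the bright line against the lowest signal well above background on the arrays of the dim line, or the dim probe's own signal where that is higher. That lowest signal is the smallest over all called probes and no detection limit for the probe itself. Each "at least" therefore holds only for the processed signal, and other background corrections can give less. The fitted log2 differences were 9.33 and 8.91 (SE 0.19, adjusted p = 6.12e-09 and 6.74e-09), and under normexp background correction with an offset of 50, which lifts dim signals, 4.54 and 4.55. The normexp values lie below the bounds. No fold is given between the PC14 lines, which were both dim.

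HOXC differed most between PC14CDDP and PC14 at its 3′ end. HOXC4, the lowest-numbered gene of the cluster, which is active in lymphoid cells, had levels of 1.03, 0.84, 1.46 and 1.12 in A549, -0.05, 0.06, 0.12 and 0.41 in PC14, and -3.92, -3.38, -3.66 and -2.96 in PC14CDDP. The 3 lines were apart, and PC14CDDP was 12.2-fold below PC14 (log2 -3.61, SE 0.17, adjusted p = 2.28e-06) and 24.1-fold below A549 (adjusted p = 1.38e-07). Its neighbour HOXC5, read by the homeobox probe printed above, showed no such difference. HOXC5 had levels of -5.44, -4.99, -5.79 and -5.36 in A549, the third not well above background, -3.02, -3.06, -3.22 and -3.08 in PC14, and -3.27, -2.63, -2.90 and -3.06 in PC14CDDP. The PC14 lines overlapped (0.13, adjusted p = 0.489), and all A549 arrays lay below them, 4.93-fold below PC14 and 5.4-fold below PC14CDDP (adjusted p = 2.68e-06 and 1.6e-06).

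From HOXC5 to HOXC10 all 5 tested genes were lower in A549 than in either PC14 line. HOXC6 had levels of 0.83, 0.83, 1.86 and 1.30 in A549, 2.14, 2.26, 2.66 and 2.50 in PC14, and 2.42, 2.60, 3.29 and 2.85 in PC14CDDP. A549 was lowest without overlap, by 1.19 against PC14 and 1.58 against PC14CDDP (adjusted p = 2.12e-05 and 3.26e-06). The 0.40 between the overlapping PC14 lines (adjusted p = 0.0145) lost its call under quantile normalization (0.31) and without the transfection term. HOXC9 had levels of 1.88, 1.85, 2.62 and 2.03 in A549, 3.64, 3.63, 3.76 and 3.64 in PC14, and 3.34, 3.14, 3.82 and 3.21 in PC14CDDP. A549 was 2.97-fold below PC14 (adjusted p = 8.08e-06), and the PC14 lines differed by -0.29 without passing the test (adjusted p = 0.082), although without the PC14 LNA-miR-197 array the difference was -0.42 (adjusted p = 0.00932). HOXC10, whose homeobox probe is printed above and which is known for lumbar motor neuron and hindlimb identity, had levels of -5.53, -5.79, -4.34 and -6.02 in A549, the fourth not well above background, -1.88, -1.70, -2.09 and -1.89 in PC14, and -3.75, -3.22, -2.70 and -3.49 in PC14CDDP. The lines did not overlap, with PC14CDDP 2.64-fold below PC14 (log2 -1.40, SE 0.29, adjusted p = 0.00452) and A549 11.6-fold below PC14 (adjusted p = 1.35e-05). HOXC8 was lower in A549 by 1.46 against PC14 and 0.95 against PC14CDDP, and HOXC13 differed by at most 0.15 in size between any lines.

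In HOXD, a pair of genes set A549 apart in opposite directions. HOXD13, at the 5′ end of the cluster and known for patterning the digits, had levels of -4.33, -4.76, -3.97 and -4.59 in A549, 2.09, 1.83, 2.08 and 1.83 in PC14, and 2.21, 1.73, 1.89 and 1.62 in PC14CDDP. A549 was 82.6-fold below PC14 and 77.5-fold below PC14CDDP (log2 -6.37 and -6.28, SE 0.12, adjusted p = 4.75e-09 and 4.41e-09), while the PC14 lines overlapped (-0.09, adjusted p = 0.573). HOXD8, read by the probe with an arginine-rich homeodomain stretch printed above, went the other way. It had levels of -2.07, -2.10, -1.27 and -2.20 in A549, -8.27, -8.28, -6.93 and -8.42 in PC14, and -6.95, -7.13, -6.95 and -6.36 in PC14CDDP. All 4 A549 arrays and none of the other 8 were well above background, which put A549 at least 20.3-fold above PC14 and at least 15.3-fold above PC14CDDP. The fitted differences of 6.06 and 4.94 (SE 0.28, adjusted p = 5.07e-07 and 1.3e-06) fell to 2.08 and 1.85 under normexp, below the bounds. The 1 HOXD8 call counted among the genes higher in PC14CDDP than in PC14 was between lines that were both dim, has no fold, and was lost under normexp (adjusted p = 0.104).

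Between these ends, HOXD9, HOXD10 and HOXD11 were higher in PC14CDDP than in PC14. HOXD11, which with its HOXA paralog patterns the forearm and kidney, had levels of -4.61, -4.15, -5.50 and -5.27 in A549, -4.01, -3.66, -4.31 and -3.82 in PC14, and -2.12, -2.38, -2.95 and -2.10 in PC14CDDP. PC14CDDP was highest without overlap, 2.95-fold above PC14 and 5.65-fold above A549 (adjusted p = 0.000406 and 1.12e-05), and A549 overlapped with PC14, the difference of -0.94 (adjusted p = 0.00382) being lost under normexp (-0.19, adjusted p = 0.0612). HOXD9 had a mean of -2.17 ± 0.25 in PC14CDDP, beside -4.17 ± 0.23 in PC14 and -4.36 ± 0.13 in A549 (SD, n = 4 arrays). HOXD10 had a mean of 0.24 ± 0.24 in PC14CDDP, beside -1.25 ± 0.18 in PC14 and -2.01 ± 0.12 in A549. PC14CDDP was thus 3.99-fold above PC14 for HOXD9 and 2.82-fold for HOXD10 (limma adjusted p = 3.59e-06 and 4.51e-05).

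At the 3′ end of the cluster, HOXD1 and HOXD3 differed in opposite directions between A549 and PC14. HOXD1 had levels of -5.76, -5.88, -4.24 and -5.54 in A549, the second not well above background, -2.43, -2.31, -1.94 and -2.23 in PC14, and -3.15, -3.07, -2.39 and -3.23 in PC14CDDP. A549 lay 8.73-fold below PC14 (adjusted p = 2.59e-06), and PC14CDDP, overlapping with PC14, 1.66-fold below it (log2 -0.73, adjusted p = 0.0144), a call lost without the PC14 NC array (-0.65), without the PC14 LNA-NC array (-0.66) or without the transfection term. HOXD3 had levels of -5.23, -5.11, -4.17 and -3.58 in A549, -7.11, -6.88, -7.25 and -5.87 in PC14, and -7.78, -3.56, -7.74 and -6.85 in PC14CDDP. All 4 A549 arrays were well above background, but in PC14 the LNA-NC array alone and in PC14CDDP the NC array alone, which was as bright as the brightest A549 array. Its 2.25 in A549 over PC14 (SE 0.79, adjusted p = 0.0335) lost its call in 7 of the 12 leave-outs of 1 array, with values from 1.83 without the PC14 NC array to 2.47 without the PC14 pre-miR-197 array. Its 1.96 in A549 over PC14CDDP (adjusted p = 0.0544) became 3.05 without the PC14CDDP NC array (adjusted p = 3.5e-05) and 2.63 without the A549 NC array (adjusted p = 0.0183).

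**Figure D2:**
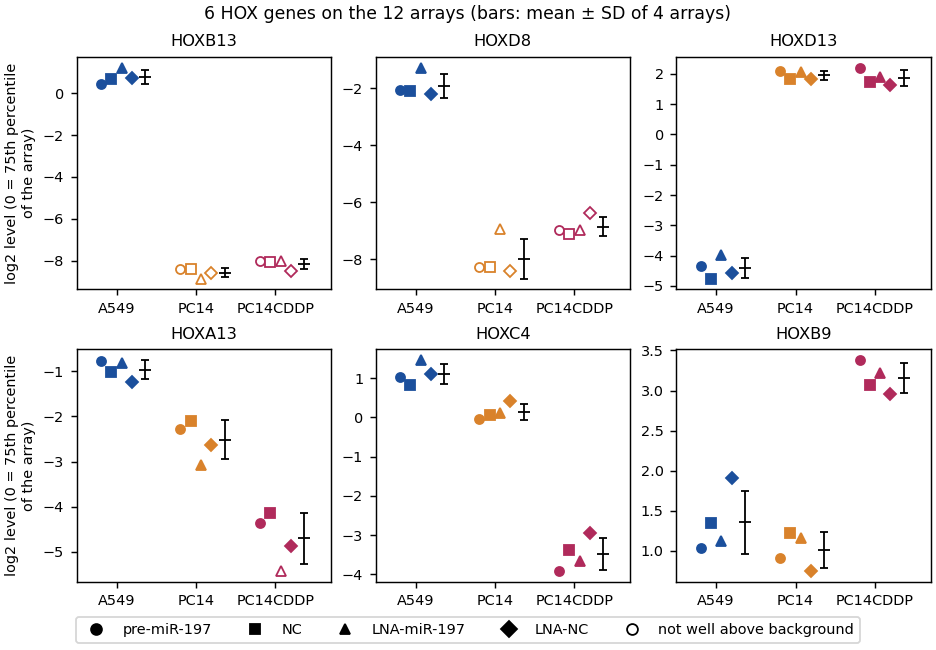
Log2 level of HOXB13, HOXD8, HOXD13, HOXA13, HOXC4 and HOXB9 on each array by cell line, with the transfection as the marker shape and bars for the mean and SD of 4 arrays. HOXB13 and HOXD8 are high in A549, HOXD13 is low in A549, HOXA13 and HOXC4 are lowest in PC14CDDP and HOXB9 is highest there.

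Normexp correction with an offset of 50 kept the direction of each called difference of the 20 named genes, but made it over 1.5 times smaller for 31 of 52 and ended the call for 3 (HOXA11 in A549 against PC14CDDP, HOXD8 in PC14CDDP against PC14 and HOXD11 in A549 against PC14). The differences of dim genes such as HOXA2, HOXA4, HOXA11, HOXB3, HOXC5, HOXC10 and HOXD1 were therefore smaller under this setting, for instance log2 1.69 in place of 2.98 for HOXA4 in A549 against PC14. An offset by itself shrinks the differences of dim signals. Normexp without an offset was not run, so the parts of the offset and of the background correction cannot be told apart.

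For 6 genes the array holds 2 probes, and the brighter on average stands for the gene above. The comparison of the 2 was chosen after seeing the data. HOXB2 gave different answers by probe. The brighter probe (chr17:46620127-46620186, minus strand) had levels of -1.36, -1.08, -0.58 and -0.28 in A549, 2.13, 2.16, 2.24 and 2.24 in PC14, and 3.35, 2.91, 3.09 and 2.76 in PC14CDDP, without overlap between lines. By it A549 was 8.11-fold below PC14 (log2 -3.02, SE 0.22, adjusted p = 6.97e-06). The homeobox probe printed above had a mean of -1.14 in both A549 (SD 0.11) and PC14 (SD 0.10), beside 0.22 ± 0.12 in PC14CDDP (n = 4 arrays each), so that A549 and PC14 did not differ in the test (-0.00, limma adjusted p = 0.994). The probes shared a direction for PC14CDDP above PC14 (0.83 and 1.36, adjusted p = 0.0152 and 9.78e-06) and for PC14CDDP above A549 (3.85 and 1.36). Of the other pairs, the HOXA6 probes passed no test between lines. The probe that stands for HOXA9 gave 0.11 in PC14CDDP over PC14 (adjusted p = 0.582), whereas its dimmer probe gave 0.59 (adjusted p = 0.00159), and both put A549 above PC14, by 0.97 and 1.15. The brighter HOXA10 probe, which spans an exon junction, put A549 above PC14 by 0.97 (adjusted p = 0.0054), whereas the other gave -0.09 (adjusted p = 0.383). Against PC14CDDP these probes gave 0.83 (adjusted p = 0.0111) and -0.23 (adjusted p = 0.0354), both past the threshold in opposite directions. The second HOXD9 probe, well above background on 3 PC14CDDP arrays, gave 1.95 in PC14CDDP over PC14 (adjusted p = 0.00861), the direction of the first, and the second HOXD3 probe was too dim to be tested.

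**Figure D3:**
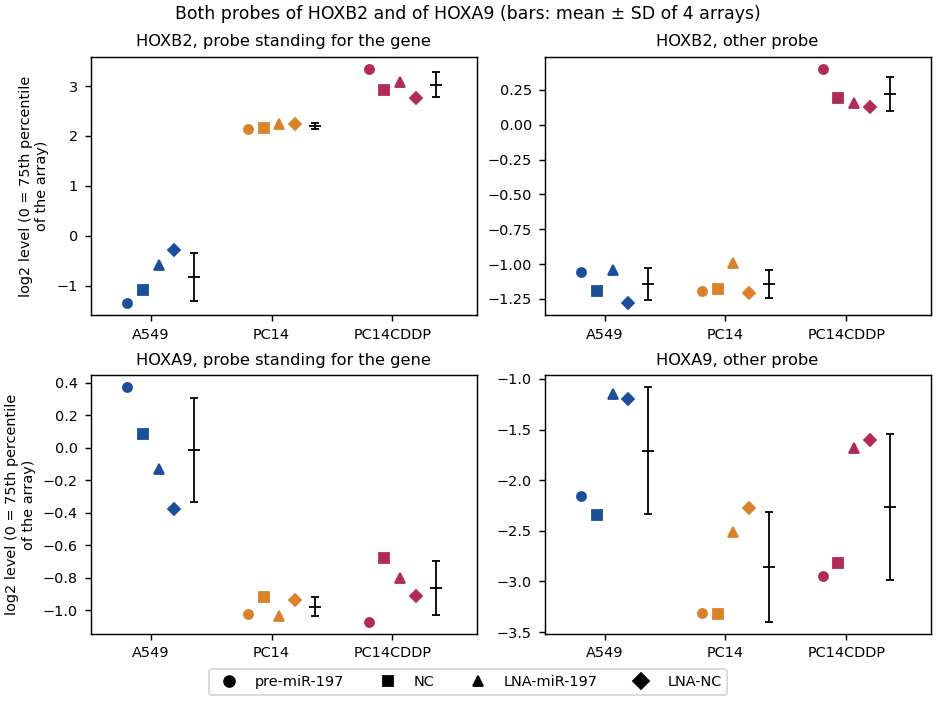
Log2 level on each array for both probes of HOXB2 and of HOXA9, by cell line and transfection (marker shape), with bars for the mean and SD of 4 arrays and a vertical scale of its own in each panel. For HOXB2 the brighter probe separates A549 from PC14 and the homeobox probe does not, and for HOXA9 the dimmer probe is higher on the LNA-miR-197 and LNA-NC arrays than on the other 2 of each line.

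The noncoding RNAs of the clusters were read for 8 of 25 listed names, and 6 passed the filter. For this and each list below, the shares of all genes called higher and lower are the background. They were 24.8% and 23.6% in PC14CDDP against PC14, 35.9% and 32.3% in A549 against PC14, and 36.8% and 33.7% in A549 against PC14CDDP. No list was tested against these shares. In A549 against PC14, 5 were higher and 1 lower, and likewise against PC14CDDP, while PC14CDDP against PC14 gave 2 and 2. HOXD-AS2, transcribed beside HOXD8, was well above background on all 4 A549 arrays and none of the others, at least 96.9-fold above PC14 and at least 73.2-fold above PC14CDDP (adjusted p = 1.85e-09 and 2e-09), which is the detection pattern of HOXD8. HOXA11-AS had a log2 difference of -2.08 between PC14CDDP and PC14 (adjusted p = 7.1e-05), with 2 of 4 PC14CDDP arrays well above background, the direction of HOXA11. HAGLR, which lies at the HOXD1 end of its cluster, was lower in A549 than in PC14 by 2.76 and in PC14CDDP by 0.98 (adjusted p = 3.15e-06 and 0.00212), the directions of HOXD1.

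Genes that flank the clusters were also counted, and the arrays given for a gene are those of the probe that stands for it. In PC14CDDP against PC14, 6 of the 7 tested genes beside HOXB were higher and none lower, as against 3 and 1 of 7 beside HOXA, 4 and 0 of 8 beside HOXC, and 2 and 1 of 6 beside HOXD. Among those beside HOXB, SKAP1 was higher by 2.31 with 1 of 4 PC14 arrays well above background, SNX11 by 1.06 (adjusted p = 0.00206 and 0.000422), and TTLL6 was dim in both by the probe that stands for it. TTLL6, the neighbour on the HOXB13 side, was by that probe well above background on the 4 A549 arrays alone, at least 7.07-fold above PC14, where none of its probes was well above background. A further TTLL6 probe was well above background in PC14CDDP, so no bound is given there. In A549 against PC14 the counts higher and lower were 5 and 1 beside HOXA, 3 and 3 beside HOXB, 3 and 1 beside HOXC, and 0 and 4 beside HOXD, and against PC14CDDP 4 and 1, 1 and 4, 2 and 3, and 0 and 3. Beside HOXA, SKAP2 and EVX1 were higher in A549 than in PC14 by 1.82 and 1.55, and SNX10 was lower by 1.48. Beside HOXC, NFE2 was at least 5.45-fold higher in A549 than in PC14, CBX5 was higher by 1.42 and CALCOCO1 lower by 0.70. Beside HOXD, LNPK and ATF2 were lower in A549 than in PC14 by 1.49 and 1.11, and MTX2 lower than in PC14CDDP by 0.68. Other than that of TTLL6 between the PC14 lines, these differences had adjusted p-values from 5.76e-07 to 0.00655, and all passed the test.

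The TALE cofactors were counted in the same way, beside the shares of all genes given with the noncoding RNAs. In PC14CDDP against PC14, 7 of 11 were higher and 1 lower, in A549 against PC14 4 and 5, and in A549 against PC14CDDP 3 and 5. MEIS3 was at least 9.69-fold higher in A549 than in PC14, where it was dim on every array. MEIS2 was higher than in PC14 both in PC14CDDP, by 2.40, and in A549, by 1.91 (adjusted p = 3.81e-06 and 3.95e-06).

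Of 14 tested CDX and retinoic acid genes, 4 were higher and 3 lower in PC14CDDP than in PC14, 10 and 2 in A549 against PC14, and 9 and 5 in A549 against PC14CDDP. ALDH1A2, an enzyme that makes retinoic acid, was well above background on the 4 PC14CDDP arrays and on no other, at least 37.8-fold above PC14 and at least 34.4-fold above A549 (adjusted p = 2.04e-07 and 6.82e-08). STRA6, the receptor that takes up retinol, was higher in A549 by 9.94 and 9.64 than in PC14 and PC14CDDP, each of which had 1 array well above background. The size of these STRA6 differences rests mostly on signals in the PC14 lines that were not well above background, and no bound was taken. CYP26A1, which breaks retinoic acid down, differed by 3.36 between A549 and PC14 and by -2.42 between PC14CDDP and PC14 (adjusted p = 0.00104 and 0.00933), with 2 of 4 PC14CDDP arrays well above background.

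The 21 Polycomb genes and 13 Trithorax genes were well above background on all 12 arrays. Of the Polycomb genes, 9 were higher and 4 lower in PC14CDDP than in PC14, 6 and 10 in A549 against PC14, and 3 and 9 in A549 against PC14CDDP. PHC2, CBX7 and RING1, all members of the Polycomb complex that binds and marks chromatin, were lower in A549 than in PC14 by 1.57, 1.95 and 1.55 (adjusted p = 1.58e-05, 9.59e-06 and 1.19e-06). The Trithorax list gave 4 and 2, 1 and 7, and 1 and 7 in the same comparisons. DOT1L, a histone H3 methyltransferase of active genes, was lower in A549 than in PC14 by 1.51, the methyltransferase complex subunit RBBP5 by 0.33 and the insulator protein CTCF by 0.59 (adjusted p = 1.1e-05, 0.0386 and 0.00392).

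Marker lists of other cell types were counted in the same way. In A549 against PC14 the counts higher and lower were 2 and 1 of 3 tested lung markers, 6 and 0 of 6 epithelial, 2 and 2 of 4 mesenchymal, 1 and 0 of 1 fibroblast, 2 and 1 of 4 immune, 1 and 1 of 3 endothelial and 0 and 1 of 2 neuroendocrine. In PC14CDDP against PC14 they were, in the same order, 1 and 2, 0 and 3, 1 and 0, 0 and 1, 0 and 1, 1 and 1, and 0 and 2. In A549 against PC14CDDP they were 1 and 1, 6 and 0, 2 and 2, 1 and 0, 2 and 1, 0 and 0, and 2 and 0. The fibroblast genes PDGFRB and DCN were well above background on no array. The part of the marker differences in the HOX differences was not tested.

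The 3 comparisons of transfections gave 1 HOX call in all. For this question each line gives 1 difference, so n = 3. Between pre-miR-197 and NC no HOX gene passed the test of 34 (0.217% of all genes did, in either direction), and 2 did at an unadjusted p under 0.05, HOXA7 with -0.33 and HOXD13 with 0.39. Of all 24856 genes, 4097 were under that unadjusted threshold. The mean differences of the 34 genes ran from -1.52 to 0.50, with a median size of 0.10 beside 0.18 for all genes. The lowest of them, HOXD3, had differences of -0.12, -0.23 and -4.21 in A549, PC14 and PC14CDDP, with 3 of the 6 arrays well above background.

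Between LNA-miR-197 and LNA-NC again no HOX gene passed the limma test (7.66% of all genes did), and 10 did at an unadjusted p under 0.05, namely HOXA2, HOXA7, HOXB4, HOXB5, HOXC6, HOXC8, HOXC9, HOXC13, HOXD1 and HOXD13. Of all 24856 genes, 6766 were under that unadjusted threshold, so 10 of 34 is close to the share of all genes. The median size was 0.35 beside 0.23 for all genes, and 15 of the 34 genes had 1 sign in all 3 lines. The share of all genes with 1 sign was not counted, so 15 of 34 has no background to be set against. HOXD1 was higher with LNA-miR-197 by 1.31 in A549, 0.29 in PC14 and 0.84 in PC14CDDP (mean 0.81, SE 0.22, adjusted p = 0.0651). HOXC9 was higher by 0.59, 0.13 and 0.61 (mean 0.44, adjusted p = 0.0864) and HOXC6 by 0.56, 0.16 and 0.44 (mean 0.39, adjusted p = 0.0905). These 3 passed under normexp, which called 3164 of all 24856 genes in this comparison, where the main fit called 1903. The methods' t-test gave 0 HOX genes in each of the 3 comparisons of transfections, adjusted or not. It was run unpaired, so differences between the lines counted as error. After adjustment it called 0 of all 24856 genes in each comparison, so its 0 is not particular to HOX genes.

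Between the controls LNA-NC and NC, 1 HOX gene passed, HOXA2 (0.716% of all genes did), and 3 did at an unadjusted p under 0.05, with HOXB5 and HOXC6. Of all 24856 genes, 3397 were under that unadjusted threshold. HOXA2 was higher with LNA-NC than with NC by 0.96 in A549, 1.03 in PC14 and 0.97 in PC14CDDP (mean 0.99, SD 0.04, SE 0.15, adjusted p = 0.0375). With LNA-miR-197 it was 0.55, 0.27 and 0.52 lower than with LNA-NC in the same lines (adjusted p = 0.103), a comparison that shares the LNA-NC arrays. The call was lost with any 1 line left out, with values from 0.96 without PC14 to 1.00 without A549 and adjusted p-values from 0.187 to 0.303. Of all 24856 genes, 178 were called with all lines, 6 without PC14, and 0 without PC14CDDP or without A549. Since those fits called almost no gene, the lost call says little about HOXA2 itself. HOXB5 was higher with LNA-NC by 0.81, 0.55 and 0.49 without passing (adjusted p = 0.126).

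HOXA9 again depended on the probe. Its brighter probe (chr7:27203145-27203204, minus strand) differed between LNA-NC and NC by -0.24 (adjusted p = 0.627). The dimmer probe (chr7:27202588-27202647, minus strand) had levels of -2.15, -2.34, -1.15 and -1.20 in A549, -3.32, -3.32, -2.51 and -2.27 in PC14, and -2.95, -2.82, -1.69 and -1.61 in PC14CDDP. In each line the 2 arrays with an LNA oligonucleotide were the highest. It was higher with LNA-NC than with NC by 1.14, 1.05 and 1.21 (SE 0.12, adjusted p = 0.0105 in the fit over all probes), and LNA-miR-197 differed from LNA-NC by -0.09 (adjusted p = 0.667) and pre-miR-197 from NC by 0.02 (adjusted p = 0.952).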

How the data were processed

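The deposited files held the scanner output of 12 arrays (SurePrint G3 Human GE v2 8x60K, hg19 probe positions), and the submitters' processing notes name Agilent Feature Extraction 10.7.3.1. Per the file headers, the intensity used (the processed signal) was already background-subtracted. A deposited value table held the same intensity on all 62976 spots. Any further normalization by the authors was not given in the sources used here. Control and outlier spots were left out, repeated spots were averaged, and log2 intensity was taken relative to each array's 75th percentile, computed here from the deposited signal. Of 50599 probes, 33712 were well above background on at least 3 arrays. Each of the 24856 genes was represented by its brightest probe on average. Names came from the files, updated through RefSeq accessions for 28174 probes (55.7%), and 106 probes lacked a usable spot on some array. Cell line and transfection were fitted together over all 12 arrays in limma 3.58.1 (R 4.3.3) with Benjamini-Hochberg adjustment over all genes. Line was the block for transfections, and arrays of the same line correlated at 0.848 to 0.948 in their deviations from the transfection means. Tables and figures were made with Python 3.11.15, pandas 2.3.3 and matplotlib 3.10.9. On simulated data with 200 of 24856 genes changed 4-fold, limma recovered 90.5% with 13 false calls for PC14CDDP against PC14, and 88% with 12 false calls for pre-miR-197 against NC. The simulated noise was independent between genes, and the real comparison of PC14CDDP and PC14 called 12008 genes. No HOX gene reached a 4-fold mean difference between transfections. These rates therefore do not show how often smaller differences, such as those of the HOX genes, would be found. Each cluster's 5 expressed genes with the largest difference between lines were named, with any gene bright in all of 1 line and none of another or called between transfections, and up to 3 called genes of each related list. The members and lists were chosen with earlier results of these data known. Alternatives were normexp, quantile normalization, other filters, blocks and priors, the deposited value table, the methods' t-test and leaving out each array or line. Some items, 1 HOX gene among them, stand in the counts and are not reported by name here.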

Additional observations from a re-analysis of the deposited data

Results flagged for a closer look

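In 97 sets of 4 arrays (a gene in a line), 5 held an array far from the other 3 by Dixon's test, which chance does in about 1 in 20 groups. HOXB4 in A549 was at -2.65 on the LNA-NC array, with the others from -3.09 to -3.03. On the LNA-miR-197 array, HOXC9 in PC14 was at 3.76 (others 3.63 to 3.64), HOXD8 in A549 at -1.27 (others -2.20 to -2.07), HOXD9 in PC14CDDP at -2.54 (others -2.09 to -2.02) and HOXD10 in PC14CDDP at -0.13 (others 0.32 to 0.39).

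For HOXD3 the difference between LNA-NC and NC went opposite ways in 2 lines, with 1 array on each side, and the difference between lines was not tested. It was 1.53 in A549 and -3.29 in PC14CDDP, with 4 of 6 arrays of the comparison well above background.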

How the results depend on the processing

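For the counts of HOX genes called and of HOX genes expressed, 99 alternatives stayed within 1.5 times the reported count and 12 did not. The 99 include the deposited value table, which held the same intensity and could not differ. They also include counts of 0 that stayed 0 in settings that called no gene at all. With 1 array left out, 21 to 24 genes were called for PC14CDDP against PC14 (23 reported), 25 to 28 for A549 against PC14 (28) and 27 to 29 for A549 against PC14CDDP (28). With 1 line left out, 0 to 0 were called in each comparison of transfections. Those fits called at most 6 of all 24856 genes in any such comparison, so these zeros are not particular to HOX genes. For LNA-miR-197 against LNA-NC, 0 became 3 under normexp and under a trended robust prior, and 1 with probes well above background on all 12 arrays. Over all genes these settings called 3164 and 3233 of 24856, and 3062 of 18483, where the main fit called 1903. The moves are therefore not particular to HOX genes. For LNA-NC against NC, 1 became 0 with no filter on dim probes, with only the arrays of the comparison, with no cell line block, with slide as the block and under the methods' t-test, adjusted or not. Over all genes tested, those settings called 92, 0, 6, 44 and 0 (the t-test after adjustment), where the main fit called 178. The cause of these moves was not tested. Of 61 results of the 20 named genes, 47 kept their direction and their side of the threshold throughout. Direction changed in 4 alternatives: HOXB13 in PC14CDDP against PC14 under normexp (-0.0127), HOXD3 in the same comparison without the PC14 NC array (-0.13) and without the PC14CDDP NC array (-0.80, limma adjusted p = 0.0364), and HOXB8 in A549 against PC14CDDP without the A549 pre-miR-197 array (-0.15). Over all leave-outs of 1 array these values reached 0.72 for HOXD3 and 0.54 for HOXB8. Genes that are dim in both lines have no measured order at this signal over background.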
